A study of Mus musculus with 17 samples.

Results

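The genes described are 9 genes of the route by which brown fat takes up lipid from circulating lipoproteins. They are the lipase gene Lpl, its maturation factor gene Lmf1, its endothelial anchor gene Gpihbp1, the inhibitor genes Angptl4 and Angptl8, and the receptor or transporter genes Cd36, Vldlr, Scarb1 and Lrp1. They were picked by gene symbol, not by their values. Each of the 9 symbols was found once among the 55414 genes of the count table, and all 9 passed the filter on low counts that kept 17717 genes. RNA sequencing was done on whole brown adipose tissue of C57BL/6J mice, an inbred laboratory strain. HFD KO denotes 5 samples from mice whose Acbp gene (annotated as Dbi) was deleted in brown adipocytes, the Acbp BAd-KO genotype, and which ate a high-fat diet with 45% of its calories from fat for 12 weeks. HFD WT denotes 5 wild-type samples on that diet, Chow KO 3 Acbp BAd-KO samples on standard chow (replicates 2 to 4), and Chow WT 4 wild-type samples on chow. Mice of all groups were kept at 22 °C. The Cre driver, the age, sex and feeding state of the mice, and whether samples were separate animals, are not stated in the sources used here, so p-values measure only the spread between these samples.

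Lipoprotein lipase is made by adipocytes and muscle cells, is folded in the endoplasmic reticulum with the help of LMF1, and is carried by GPIHBP1 across capillary endothelial cells to the vessel lumen. There it releases fatty acids from the triglycerides of chylomicrons and very-low-density lipoproteins, and ANGPTL4 and ANGPTL8 restrain it according to feeding, fasting and cold. CD36 takes up the fatty acids, while the VLDL receptor, SR-B1 (Scarb1) and LRP1 bind lipoproteins or their remnants. Brown fat is known as a tissue that clears much triglyceride from blood, above all in the cold, and acyl-CoA-binding protein binds the acyl-CoA made from fatty acids inside the cell.

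Libraries held 39.6 to 104.9 megacounts (M), with 39.6 to 49.7 M in chow libraries and 60.0 to 104.9 M in HFD libraries. Levels are given in CPM, counts per megacount of the library total after scaling by trimmed-mean (TMM) factors, and a gene counts as called at edgeR's quasi-likelihood test with a Benjamini-Hochberg adjusted p of at most 0.05 over the 17717 genes. Dbi stood at 128 ± 21.3 CPM in HFD KO and 701 ± 55.6 CPM in HFD WT (SD, n = 5 each), and at 97.2 ± 7.93 CPM in Chow KO and 1022 ± 64.6 CPM in Chow WT (n = 3 and 4). The brown adipocyte marker Ucp1 averaged 2952 CPM in HFD KO, 2676 CPM in HFD WT, 3101 CPM in Chow KO and 2288 CPM in Chow WT. The 9 brown adipocyte markers summed to 5458 to 7156 CPM in HFD KO, 4659 to 6635 CPM in HFD WT, 6243 to 6409 CPM in Chow KO and 4826 to 6690 CPM in Chow WT. By diet, 2 of the 9 were called in the knockout (Adipoq lower at -0.41 and Plin5 higher at 0.50) and 3 in wild-type (Cidea lower at -0.61, Plin1 higher at 0.21 and Plin5 higher at 0.40). Of all tested genes, 25.8% were called by diet in the knockout and 32.1% in wild-type. By genotype, edgeR called 0 of the 9 on either diet, with 2 at an unadjusted p under 0.05 on each and 0 by DESeq2. The 12 skeletal muscle markers summed to 3.29 to 5192 CPM in HFD KO, 5.51 to 3245 CPM in HFD WT, 2.25 to 766 CPM in Chow KO and 221 to 1247 CPM in Chow WT. On HFD, the 4 muscle-rich libraries were HFD KO 2, 4 and 5 and HFD WT 1, with 1340 CPM or more, and the other 6 had 16.3 CPM or less. The 12 hepatocyte markers summed to 4.51 to 211 CPM in HFD KO, 1.31 to 175 CPM in HFD WT, 8.598 to 63.1 CPM in Chow KO and 0.390 to 1.84 CPM in Chow WT. Library numbers in the labels fall into 4 runs. Run 1 holds Chow WT 1 and 2, run 2 the other chow libraries, run 3 the HFD WT libraries with HFD KO 1, and run 4 HFD KO 2 to 5. What a run stands for is not given, diet and run cannot be told apart, and within HFD only HFD KO 1 shares a run with wild-type, so a term for the run leaves HFD KO 1 as the only knockout library on HFD and does not adjust diet. In bulk tissue, fewer cells of a type and less RNA per cell cannot be told apart either.

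When CPM were divided by exon length, Cd36 and Lpl were the most abundant of the 9 transcripts in every group, and Scarb1 and Lmf1 the least. In CPM itself, Lpl (group means 1746 to 2845) lay above Cd36 (1035 to 1611) in every group. The lowest in CPM in every group was Angptl8 (14.6 to 19.3). Per kilobase of annotated exon, Cd36 stood at 381 ± 20.6 CPM per kb in HFD KO, 449 ± 28.4 in HFD WT, 288 ± 4.26 in Chow KO and 328 ± 13.8 in Chow WT. Lpl followed with 167 ± 29.1 CPM per kb in HFD KO, 186 ± 12.8 in HFD WT, 271 ± 47.2 in Chow KO and 206 ± 22.1 in Chow WT. Angptl4 was the next in every group, at 30.9 to 50.0 CPM per kb. Lrp1, Vldlr, Angptl8 and Gpihbp1 had group means between 10.4 and 27.9 CPM per kb. Scarb1 had 2.98 to 4.93 and Lmf1 1.63 to 1.84 CPM per kb. Per kb, the order was thus the same at both ends in the 4 groups. Vldlr and Angptl8 lay within their SD of each other in all 4 groups, and Cd36 and Lpl did so in Chow KO alone. Because the length counts every annotated exon once, a gene with long exons outside its main transcript has a lower value per kb on this scale.

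**Figure D1:**
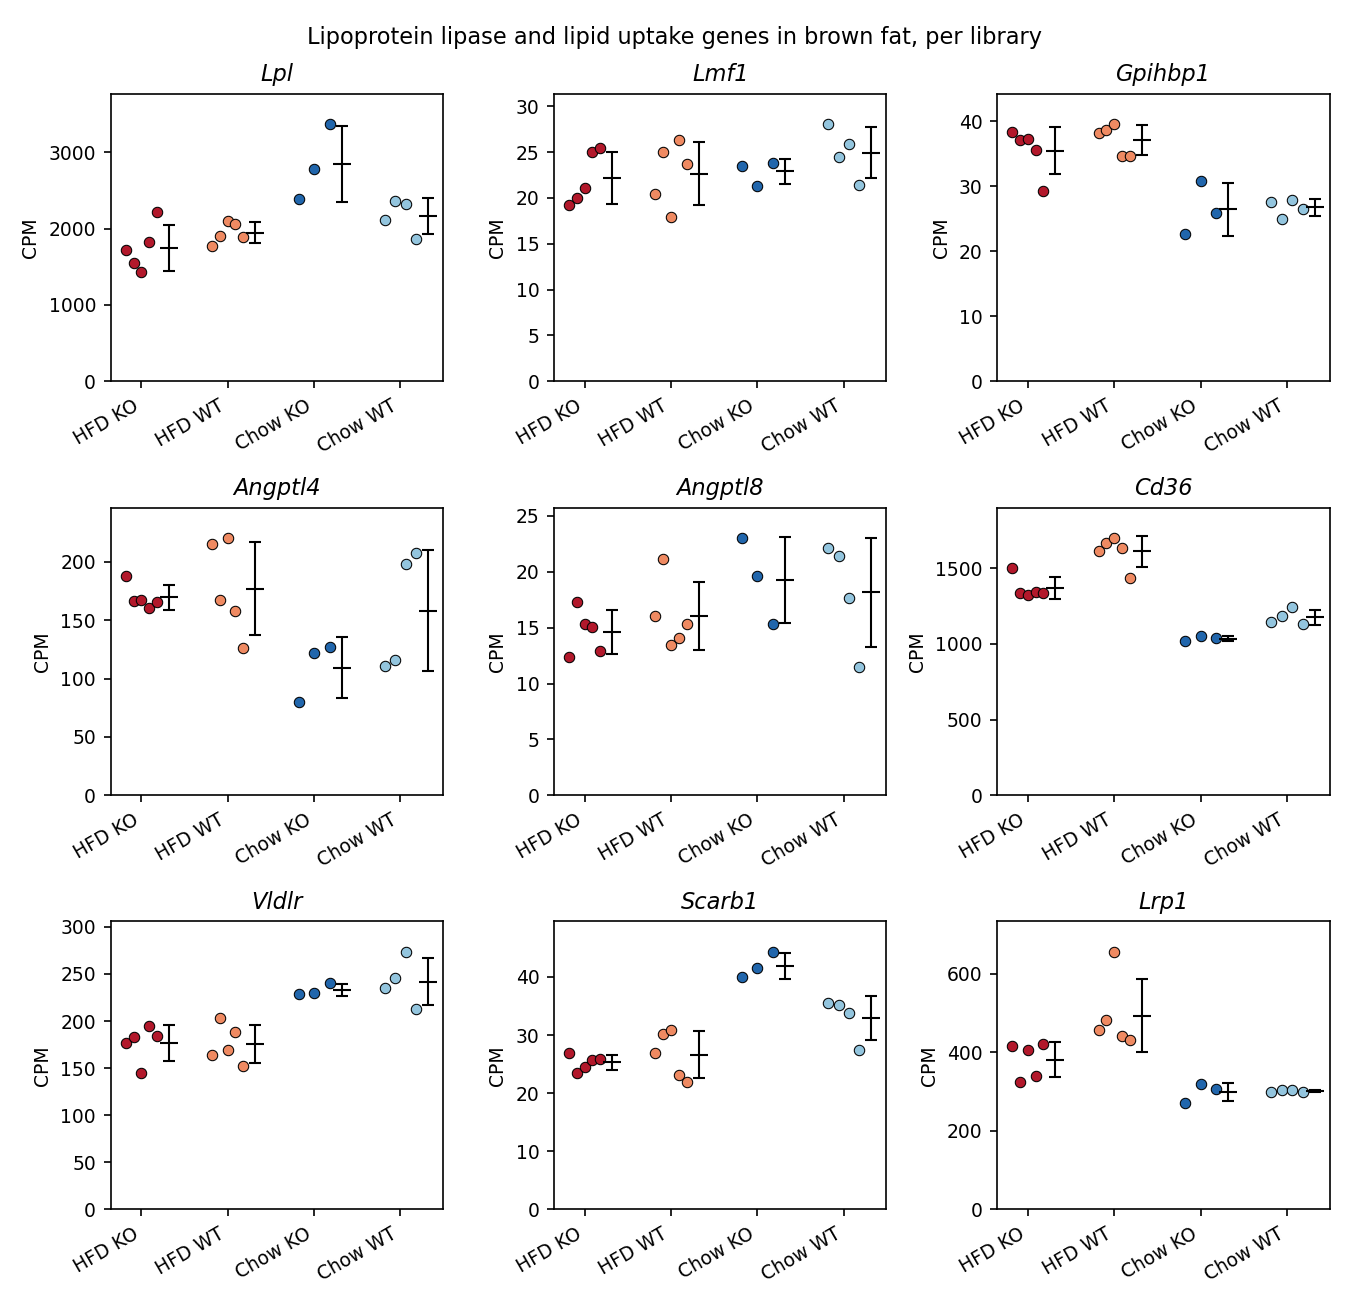
CPM of the 9 genes in each library (points), with the mean and SD of each group (bars), for HFD KO, HFD WT, Chow KO and Chow WT; every axis starts at 0. Cd36, Gpihbp1 and Lrp1 lie higher in the HFD groups than in the chow groups, Vldlr and Scarb1 lie lower, and Lpl is highest in Chow KO.

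Diet separated these genes more than genotype did in the number of calls. In the knockout, HFD against chow gave 7 called genes of 9, where 25.8% of all tested genes were called. Gpihbp1, Angptl4, Cd36 and Lrp1 rose (4 of 9, beside 12.8% of all genes), and Lpl, Vldlr and Scarb1 fell (3 of 9, beside 13.1%). In 6 of the 9 genes the HFD KO and Chow KO libraries did not overlap, beside 31.6% of all tested genes. In wild-type, the same diet comparison gave 5 calls of 9, where 32.1% of all tested genes were called. Gpihbp1, Cd36 and Lrp1 rose (3 of 9, beside 16.9% of all genes) and Vldlr and Scarb1 fell (2 of 9, beside 15.2%). The groups did not overlap in 4 of the 9 (24.8% of all genes). The median log2 fold change of the 9 genes was -0.05 in the knockout, where the median of all tested genes was 0.03, and -0.14 in wild-type, where that of all genes was 0.02. The 2 diet comparisons use different samples, so the directions of Gpihbp1, Cd36, Lrp1, Vldlr and Scarb1 were found in separate libraries, although the runs differ with the diet in both.

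Genotype gave few calls. On HFD, 0 of the 9 genes were called by edgeR's quasi-likelihood test (2 at an unadjusted p under 0.05), where edgeR called 0.536% of all tested genes. DESeq2 called 2, Cd36 and Lrp1, but it also called more of the 17717 genes, 260 higher and 321 lower on HFD. By genotype on chow DESeq2 called 321 genes higher and 281 lower, and averaged over diets 508 higher and 563 lower. An unadjusted p under 0.05 in edgeR was found for 2256 genes on HFD and 2692 on chow. The HFD KO and HFD WT libraries did not overlap in 1 of 9, Lrp1, against 3.6% of all genes in either direction and 1.94% in the downward one. On chow, 0 of 9 were called by edgeR or DESeq2 (4 at an unadjusted p under 0.05 in edgeR), where 1.06% of all genes were called. Chow KO and Chow WT did not overlap for Lpl, Scarb1 and Cd36, 3 of 9 beside 12.8% of all genes. Averaged over both diets, 1 of 9 was called, Cd36, downward, where 2.86% of all genes were called and 1.54% downward. The interaction of genotype with diet called 0 of 9 (3 at an unadjusted p under 0.05, and 0 by DESeq2), where 0.0903% of all genes were called. Median log2 fold changes of the 9 genes were -0.07 on HFD, -0.02 on chow and -0.04 averaged, and those of all tested genes were 0.00, -0.01 and 0.00.

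**Figure D2:**
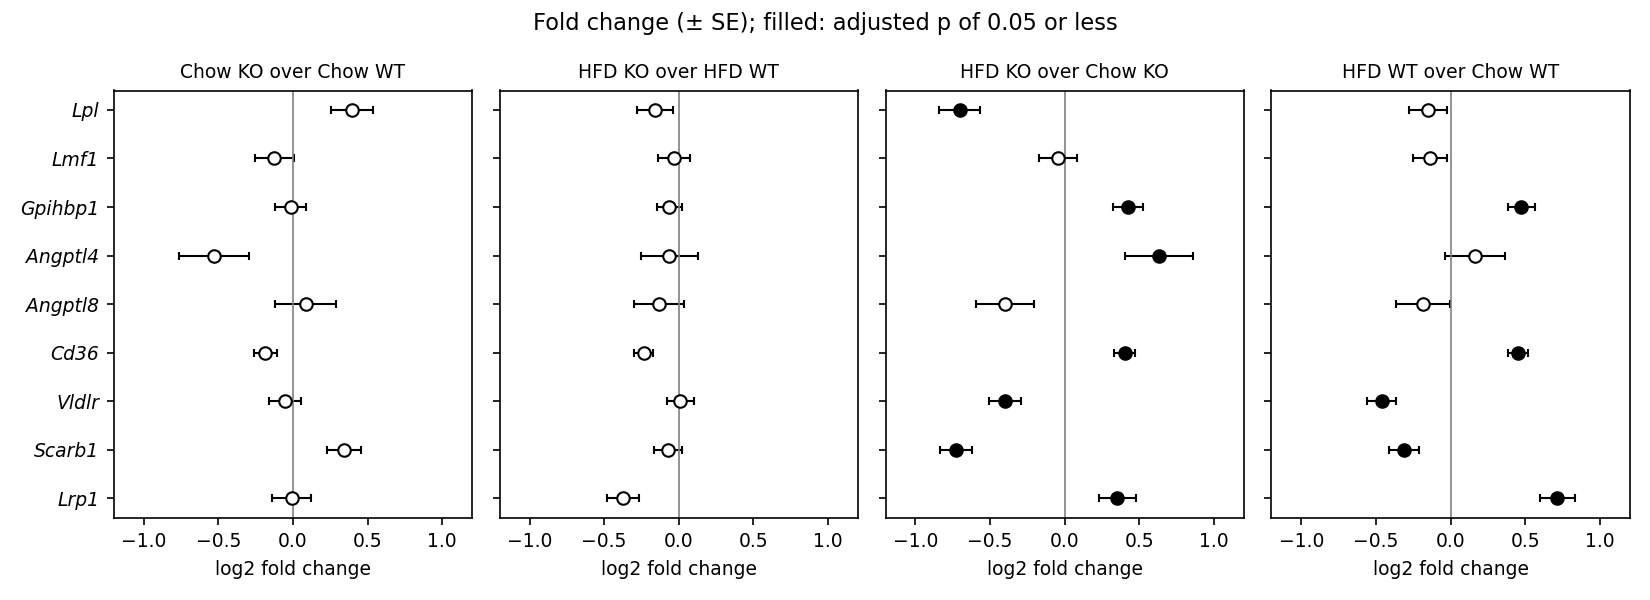
Log2 fold change of each gene with its standard error (SE) in 4 comparisons, Chow KO over Chow WT, HFD KO over HFD WT, HFD KO over Chow KO and HFD WT over Chow WT; filled points are called at an adjusted p of 0.05 or less. None of the 9 points is filled in either genotype panel, 7 are filled for diet in the knockout and 5 for diet in wild-type, and with library totals in place of TMM the wild-type diet values of Lpl, Lmf1, Angptl8, Vldlr and Scarb1 change sign, as do Lmf1 by diet in the knockout, Gpihbp1, Vldlr and Lrp1 by genotype on chow, and Vldlr by genotype on HFD.

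Lpl (ENSMUSG00000015568.17), the lipase itself, was lower on HFD than on chow in the knockout and was not called in wild-type. Its level was 1720, 1545, 1426, 1819 and 2219 CPM in HFD KO, 1778, 1905, 2106, 2063 and 1890 CPM in HFD WT, 2382, 2787 and 3366 CPM in Chow KO, and 2106, 2363, 2323 and 1860 CPM in Chow WT. All 3 Chow KO libraries lay above all other libraries of the study, while the HFD KO, HFD WT and Chow WT libraries overlapped one another. In the knockout Lpl fell 1.63-fold on HFD, to 1746 ± 305 CPM in HFD KO against 2845 ± 495 CPM in Chow KO (log2 fold change -0.70 ± 0.14 SE, adjusted p = 0.00154). In wild-type it averaged 1949 ± 134 CPM in HFD WT and 2163 ± 231 CPM in Chow WT (adjusted p = 0.387). On chow the knockout mean was 1.32-fold the wild-type mean, a log2 fold change of 0.40 ± 0.14 that was not called (edgeR adjusted p = 0.194), and it was 0.26 without Chow KO 4. The difference between the genotype effects on the 2 diets was -0.55 ± 0.19 on the log2 scale and did not pass either (adjusted p = 0.305). Lpl is a gene of muscle as well as fat. Without the 4 muscle-rich HFD libraries the fall on HFD in the knockout was -0.85 (adjusted p = 0.00334). This left HFD KO 1 and 3 against all 3 Chow KO libraries. Among these was Chow KO 4, with the highest Lpl and 766 CPM of muscle markers. With a term for muscle markers and every library kept, the fall of Lpl was -0.72 (adjusted p = 0.00169). Beyond these fits the part of muscle was not tested.

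Lmf1 (ENSMUSG00000002279.20), needed for folding of the lipase, was called in no comparison. Its level was 19.3, 20.0, 21.1, 25.0 and 25.4 CPM in HFD KO, 20.4, 25.0, 17.9, 26.3 and 23.7 CPM in HFD WT, 23.5, 21.3 and 23.8 CPM in Chow KO, and 28.0, 24.4, 25.9 and 21.4 CPM in Chow WT. All 4 groups overlapped, and group means spanned 22.2 to 24.9 CPM. Of the other 5 genes of maturation and anchoring, Sel1l, Lmf2, Hspg2, Sdc1 and Sdc4, 0 rose and 1 fell on HFD in the knockout, and 1 rose and 0 fell in wild-type. Over all tested genes, diet called 12.8% up and 13.1% down in the knockout. In wild-type diet called 16.9% up and 15.2% down, and these shares stand beside the later lists too. Sel1l, whose product binds the lipase complex in the endoplasmic reticulum, fell in the knockout, to 65.3 ± 2.15 CPM in HFD KO against 75.0 ± 2.24 CPM in Chow KO (-0.20 ± 0.05, adjusted p = 0.00657). Hspg2, which encodes the heparan sulfate proteoglycan perlecan, rose in wild-type, to 433 ± 66.9 CPM in HFD WT against 334 ± 26.4 CPM in Chow WT (0.38 ± 0.12, adjusted p = 0.0269). Genotype called 0 of these 5 on either diet by edgeR (3 at an unadjusted p under 0.05 on HFD and 1 on chow) and by DESeq2.

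Gpihbp1 (ENSMUSG00000022579.11), which encodes the protein that carries the lipase across endothelial cells, was higher on HFD in both genotypes. Its level was 38.3, 37.0, 37.2, 35.6 and 29.3 CPM in HFD KO, 38.1, 38.7, 39.5, 34.7 and 34.6 CPM in HFD WT, 22.6, 30.8 and 25.9 CPM in Chow KO, and 27.6, 24.9, 27.9 and 26.5 CPM in Chow WT. Every HFD WT library lay above every Chow WT library, and HFD KO overlapped Chow KO through HFD KO 5 and Chow KO 3 alone. Gpihbp1 rose 1.34-fold in the knockout (0.42 ± 0.10, adjusted p = 0.00528), with 35.5 ± 3.61 CPM in HFD KO and 26.4 ± 4.10 CPM in Chow KO. In wild-type it rose 1.39-fold (0.47 ± 0.09, adjusted p = 0.00094), with 37.1 ± 2.33 CPM in HFD WT and 26.7 ± 1.37 CPM in Chow WT.

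Markers of endothelial cells, which make Gpihbp1, moved with diet as well. The 12 endothelial markers summed to 561 to 733 CPM in HFD KO, 696 to 817 CPM in HFD WT, 536 to 573 CPM in Chow KO and 520 to 645 CPM in Chow WT, with none at 0 in any library. In wild-type 8 of the 12 rose on HFD (beside 16.9% of all genes), in the knockout 4 rose (beside 12.8%), and 0 fell in either. Set against the mean log2 level of these markers, Gpihbp1 stood at -0.04, 0.16, -0.12, 0.18 and -0.15 in HFD KO, at -0.20, -0.18, -0.21, -0.15 and -0.18 in HFD WT, at -0.42, -0.04 and -0.14 in Chow KO, and at -0.09, -0.18, -0.11 and -0.36 in Chow WT. On this relative scale the wild-type diet groups did not separate, with -0.18 ± 0.02 in HFD WT and -0.18 ± 0.12 in Chow WT (difference 0.00042, two-sided exact permutation p = 0.992, adjusted p = 0.992 over 4 comparisons). The diet difference in the knockout was 0.21 (exact p = 0.214, adjusted p = 0.429). Between genotypes on HFD all 5 HFD KO values lay above all 5 HFD WT values, by 0.19 on average (exact p = 0.00794, the smallest the test can give, adjusted p = 0.0317). The groups were close at their edge, with -0.145 in HFD KO 5 and -0.153 in HFD WT 4. The highest values, 0.16 and 0.18, were those of HFD KO 2 and 4. These and HFD KO 5 are muscle-rich libraries of run 4, and the parts of muscle and run in this difference were not tested. The endothelial marker Emcn was lower in HFD KO, at 11.4 ± 0.99 CPM against 15.1 ± 0.81 CPM in HFD WT, and all 12 markers had a negative log2 fold change there, while Gpihbp1 itself was not called (adjusted p = 0.802). The relative difference on HFD was 0.15 and not called (adjusted p = 0.254) when the markers in odd places of the list were used. Leaving out any HFD WT library also ended the call, with the difference at 0.18 to 0.20. Genotype on chow gave a difference of -0.02 (exact p = 0.886, adjusted p = 0.992). Which endothelial cells contributed was not tested.

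**Figure D3:**
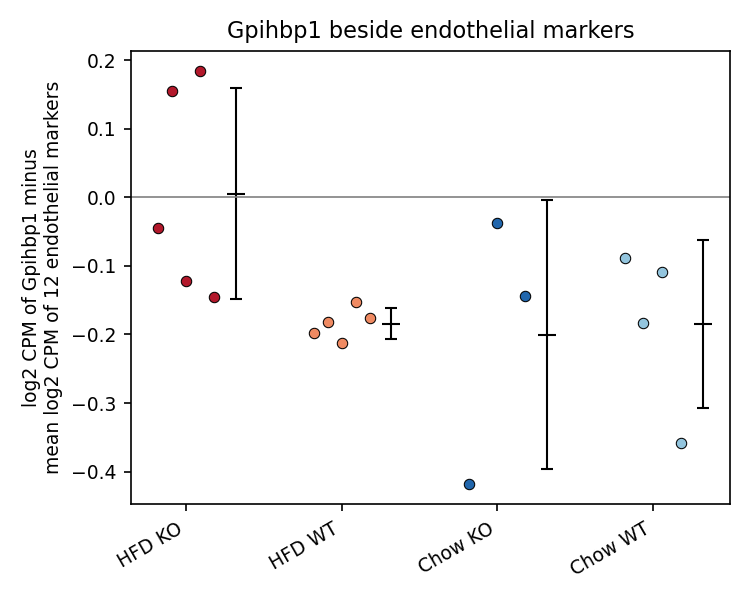
Log2 CPM of Gpihbp1 minus the mean log2 CPM of 12 endothelial markers in each library (points), with group means and SD (bars), for HFD KO, HFD WT, Chow KO and Chow WT. The 5 HFD KO values run from -0.15 to 0.18 and lie above the 5 HFD WT values, which run from -0.21 to -0.15, and HFD WT lies within the range of Chow WT.

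Angptl4 (ENSMUSG00000002289.17) encodes an inhibitor of the lipase that rises with fasting and with fatty acids. Its level was 187, 166, 167, 161 and 166 CPM in HFD KO, 215, 167, 220, 157 and 126 CPM in HFD WT, 79.5, 122 and 127 CPM in Chow KO, and 111, 116, 198 and 207 CPM in Chow WT. Every HFD KO library lay above every Chow KO library, while HFD WT and Chow WT overlapped widely. In the knockout Angptl4 rose 1.55-fold on HFD (0.63 ± 0.23, adjusted p = 0.0491), with 170 ± 10.4 CPM in HFD KO and 109 ± 26.0 CPM in Chow KO. This call lay at the threshold, and leaving out any HFD KO or Chow KO library ended it (log2 fold change 0.45 to 0.75, adjusted p up to 0.221). On chow the log2 fold change by genotype was -0.53 ± 0.23 (adjusted p = 0.291), with Chow KO overlapping Chow WT. The Chow WT values split by run of library numbers, since the libraries at 111 and 116 CPM are those of run 1 and the libraries at 198 and 207 CPM those of run 2. Within run 2, all 3 Chow KO libraries lay below both Chow WT libraries, and with the run in the model, which sets Chow KO against these 2 libraries, the log2 fold change was -0.89 (adjusted p = 0.138). Without Chow WT 1 and 2 it was also -0.89 (adjusted p = 0.125).

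Angptl8 (ENSMUSG00000047822.9), an insulin- and feeding-induced member of the angiopoietin-like family, was called in no comparison. Its level was 12.4, 17.3, 15.3, 15.0 and 12.9 CPM in HFD KO, 16.0, 21.2, 13.5, 14.1 and 15.3 CPM in HFD WT, 23.0, 19.6 and 15.3 CPM in Chow KO, and 22.2, 21.4, 17.6 and 11.5 CPM in Chow WT. The 4 groups overlapped, with means of 14.6 to 19.3 CPM. In GENCODE M21 Angptl8 lies inside Dock6, on the other strand and without shared exons, and since the strand setting is not stated, reads from unspliced Dock6 RNA cannot be told apart from it. Of the 4 proprotein convertase genes Furin, Pcsk5, Pcsk6 and Pcsk7, whose products cut lipases and angiopoietin-like proteins, 3 were called in at least 1 comparison. Furin fell on HFD in both genotypes, to 124 ± 9.69 CPM in HFD KO against 193 ± 11.8 CPM in Chow KO (-0.64 ± 0.11, adjusted p = 0.000578) and to 124 ± 10.3 CPM in HFD WT against 168 ± 29.5 CPM in Chow WT (-0.44 ± 0.10, adjusted p = 0.0036). Pcsk6 rose in both, by 0.22 ± 0.06 in the knockout (adjusted p = 0.0133) and 0.33 ± 0.06 in wild-type (adjusted p = 0.000327). Pcsk5 was higher in Chow KO, at 15.9 ± 5.05 CPM, than in Chow WT, at 7.79 ± 0.84 CPM (1.03 ± 0.19, adjusted p = 0.0148). It fell on HFD in the knockout, with 6.68 ± 0.95 CPM in HFD KO (-1.25 ± 0.17, adjusted p = 0.000122). Among these 4 genes the calls were 1 up and 0 down by genotype on chow, 0 by genotype on HFD (1 at an unadjusted p under 0.05, 0 by DESeq2), 1 up and 2 down by diet in the knockout, and 1 up and 1 down by diet in wild-type.

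Cd36 (ENSMUSG00000002944.16), the fatty acid translocase, was the member called when genotype was averaged over both diets. Its level was 1499, 1337, 1322, 1344 and 1335 CPM in HFD KO, 1616, 1667, 1697, 1636 and 1437 CPM in HFD WT, 1019, 1049 and 1038 CPM in Chow KO, and 1147, 1181, 1244 and 1132 CPM in Chow WT. All Chow KO libraries lay below all Chow WT libraries. On HFD, HFD KO 2 to 5 lay below all HFD WT libraries and HFD KO 1 lay above HFD WT 5. Averaged over both diets, Cd36 fell 1.16-fold in the knockout (-0.21 ± 0.05, adjusted p = 0.0307). On HFD the log2 fold change was -0.24 ± 0.06, with 1368 ± 74.0 CPM in HFD KO and 1611 ± 102 CPM in HFD WT (adjusted p = 0.0982), and on chow it was -0.18 ± 0.07, with 1035 ± 15.3 CPM in Chow KO and 1176 ± 49.7 CPM in Chow WT (adjusted p = 0.247). The 1 knockout library that shares a run with HFD WT, HFD KO 1, is the highest of its group. Without the 4 HFD libraries rich in muscle transcripts, the averaged change was -0.19 (adjusted p = 0.324). Over all genes, that fit called 14 higher and 9 lower, against 233 and 273 with every library. With a term for muscle markers and every library kept, the averaged change of Cd36 was -0.21 and stayed called (adjusted p = 0.0411). The part of muscle was not tested further.

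**Figure D4:**
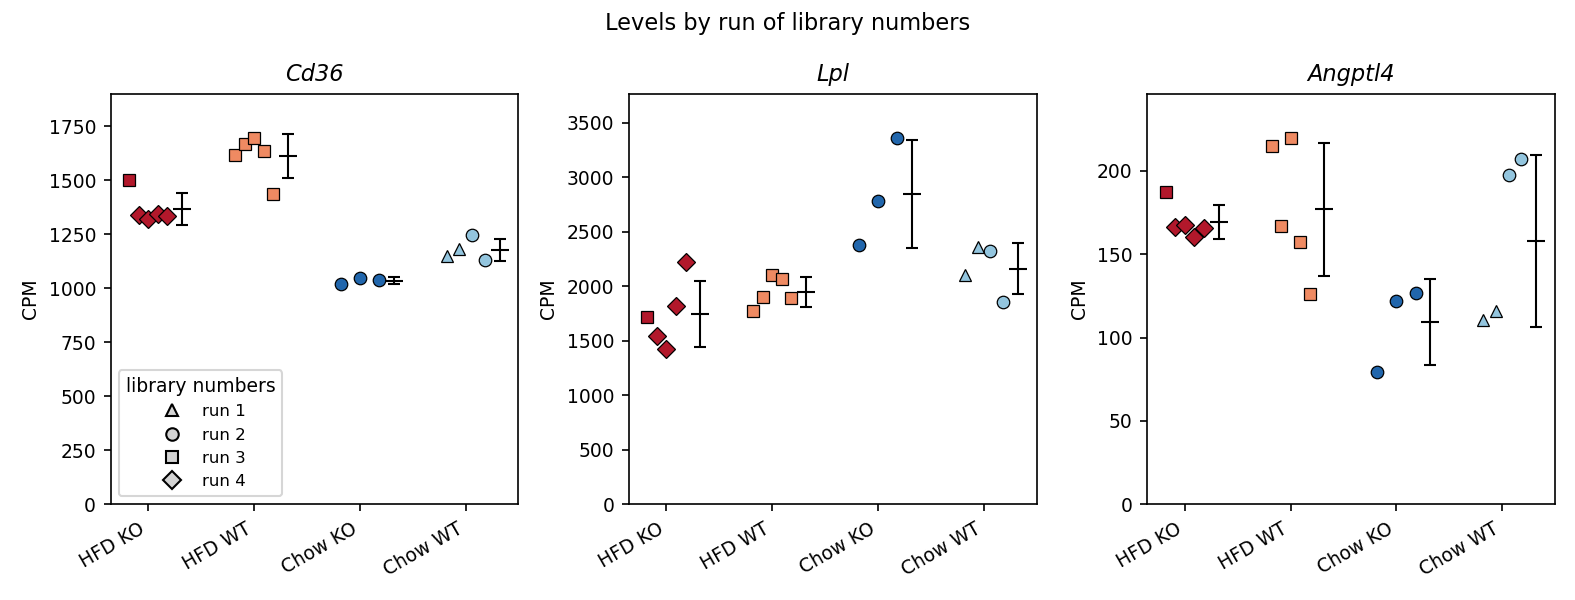
CPM of Cd36, Lpl and Angptl4 in each library, with the shape of a point giving its run of library numbers and bars giving the group mean and SD; axes start at 0. HFD KO 1, the square among the HFD KO points, has the highest Cd36 (1499 CPM) and Angptl4 (187 CPM) of its group, and the Chow WT values of Angptl4 divide by run.

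Cd36 was called by diet in both genotypes. It rose 1.32-fold in the knockout (0.40 ± 0.07, adjusted p = 0.000948) and 1.37-fold in wild-type (0.45 ± 0.07, adjusted p = 0.000114), with no overlap between HFD and chow libraries of the same genotype. These rises were called under every alternative tried, none of which separates diet from run.

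The lipoprotein receptors did not move as a group. Vldlr (ENSMUSG00000024924.15), the receptor for very-low-density lipoprotein, stood at 177, 183, 145, 195 and 184 CPM in HFD KO, at 164, 203, 170, 189 and 153 CPM in HFD WT, at 229, 230 and 241 CPM in Chow KO, and at 235, 246, 273 and 213 CPM in Chow WT. All HFD libraries lay below all chow libraries, and the genotypes overlapped on both diets. Vldlr fell on HFD by 1.32-fold in the knockout (-0.40 ± 0.10, adjusted p = 0.0104) and by 1.38-fold in wild-type (-0.46 ± 0.10, adjusted p = 0.00185). These falls are relative to TMM scaling. With library totals they were -0.14 (adjusted p = 0.363) in the knockout and 0.0085 (adjusted p = 0.949) in wild-type.

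Scarb1 (ENSMUSG00000037936.16) encodes SR-B1, a receptor for high-density lipoprotein that also takes part in uptake of other lipoproteins. Its level was 27.0, 23.6, 24.5, 25.7 and 25.8 CPM in HFD KO, 27.0, 30.1, 30.9, 23.2 and 22.0 CPM in HFD WT, 39.9, 41.5 and 44.2 CPM in Chow KO, and 35.6, 35.2, 33.9 and 27.4 CPM in Chow WT. Chow KO libraries lay above all others, HFD KO did not overlap Chow KO, and HFD WT overlapped Chow WT through Chow WT 4. Scarb1 fell on HFD 1.66-fold in the knockout (-0.73 ± 0.11, adjusted p = 0.000189), a call kept under every alternative tried. In wild-type it fell 1.24-fold (-0.31 ± 0.10, adjusted p = 0.0251), a call lost under 13 of 22 alternatives, and library totals gave 0.17 (adjusted p = 0.295). On chow the genotype difference was 0.34 ± 0.11 and not called (adjusted p = 0.153). The difference between the genotype effects on HFD and chow was -0.42 ± 0.15 (adjusted p = 0.323). Scarb1 and Lpl thus shared their order of group means, with Chow KO highest, then Chow WT, HFD WT and HFD KO, and HFD WT and HFD KO overlapped in both genes. Angptl8, which was called in no comparison, had the same order of means.

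Lrp1 (ENSMUSG00000040249.16), a large endocytic receptor for lipoprotein remnants that many cell types express, including macrophages, rose on HFD in both genotypes. Its level was 416, 326, 405, 340 and 421 CPM in HFD KO, 458, 482, 655, 442 and 433 CPM in HFD WT, 272, 318 and 306 CPM in Chow KO, and 299, 303, 303 and 298 CPM in Chow WT. All HFD libraries lay above all chow libraries, and all HFD KO libraries lay below all HFD WT libraries. In wild-type Lrp1 rose 1.64-fold (0.72 ± 0.12, adjusted p = 0.000258), with 494 ± 92.0 CPM in HFD WT and 301 ± 2.72 CPM in Chow WT. The rise in the knockout was 1.28-fold (0.35 ± 0.13, adjusted p = 0.0481), with 382 ± 45.2 CPM in HFD KO and 299 ± 24.0 CPM in Chow KO, a call at the threshold that was lost under 10 of 20 alternatives. By genotype on HFD the log2 fold change was -0.37 ± 0.11 (adjusted p = 0.132), or -0.25 without HFD WT 3. DESeq2 called it (adjusted p = 0.0255). Averaged over diets it was -0.19 ± 0.08 (adjusted p = 0.236), and the interaction was -0.36 ± 0.17 (adjusted p = 0.475). Macrophage markers moved with diet too. The 10 markers summed to 89.6 to 198 CPM in HFD KO, 111 to 258 CPM in HFD WT, 63.5 to 87.3 CPM in Chow KO and 71.0 to 77.9 CPM in Chow WT, 9 of the 10 rose on HFD in wild-type and 7 in the knockout, and their part in the rise of Lrp1 was not tested.

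Promoters are shown for Cd36, Lrp1 and Vldlr, the members with a window that were called by diet in both genotypes with TMM scaling. Cd36 and Lrp1 were called up and Vldlr down, although with library totals Vldlr was called in neither genotype. The windows run from 250 bases before to 50 after the annotated start and come from RefSeq on GRCm38.p6, which is not the build of the counts, on the gene's own strand. Cd36 lies at chr5:17835847-17836146 on the minus strand and Lrp1 at chr10:127621099-127621398 on the minus strand. Vldlr has 2 annotated starts, with windows at chr19:27216234-27216533 and chr19:27216770-27217069 on the plus strand. Capitals mark TGACCT, the reverse complement of AGGTCA, the core hexamer bound by nuclear receptors.
Cd36: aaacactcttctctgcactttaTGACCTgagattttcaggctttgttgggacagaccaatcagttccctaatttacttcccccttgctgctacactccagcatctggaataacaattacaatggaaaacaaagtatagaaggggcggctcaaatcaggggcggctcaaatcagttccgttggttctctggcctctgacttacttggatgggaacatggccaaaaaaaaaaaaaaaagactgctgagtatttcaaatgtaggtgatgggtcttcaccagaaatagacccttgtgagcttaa
Lrp1: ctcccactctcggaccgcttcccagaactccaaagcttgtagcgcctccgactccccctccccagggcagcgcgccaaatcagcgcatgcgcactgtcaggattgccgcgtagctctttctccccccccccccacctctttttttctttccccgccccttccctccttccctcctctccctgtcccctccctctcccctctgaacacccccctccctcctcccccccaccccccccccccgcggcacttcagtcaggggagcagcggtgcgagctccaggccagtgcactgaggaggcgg
Vldlr, upstream start: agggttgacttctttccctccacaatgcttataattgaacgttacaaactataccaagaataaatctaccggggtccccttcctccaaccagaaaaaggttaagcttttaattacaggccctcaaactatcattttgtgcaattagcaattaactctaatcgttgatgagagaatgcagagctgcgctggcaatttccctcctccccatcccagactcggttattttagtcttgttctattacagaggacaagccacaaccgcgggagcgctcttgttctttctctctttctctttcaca
Vldlr, downstream start: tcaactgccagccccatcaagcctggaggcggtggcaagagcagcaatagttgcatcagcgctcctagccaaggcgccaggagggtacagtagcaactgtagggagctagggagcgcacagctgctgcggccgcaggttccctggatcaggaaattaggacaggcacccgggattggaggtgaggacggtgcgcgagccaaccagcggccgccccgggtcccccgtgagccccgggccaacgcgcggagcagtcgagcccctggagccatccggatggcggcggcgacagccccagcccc

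The Cd36 window and the upstream Vldlr window each held 43.0% G and C, the Lrp1 window 67.7% and the downstream Vldlr window 68.0%, where the median of 32851 windows of this length was 52.7%. The windows of Angptl8 (58.3%) and Lmf1 (66.3%) were searched as well, so that 5 of the 9 genes had a window. Both strands were searched for AGGTCA (found in 16.3% of all windows), for AGGTCA repeated after any single base, the element of PPAR with RXR (0.0396%), for the sterol element TCACNCCAC (1.24%), for the hypoxia element core ACGTG (19.6%) and for the cAMP element TGACGTCA (1.79%). The repeated element contains AGGTCA, and a match to it would count under both. The single match in the 6 windows was the AGGTCA of Cd36, on the opposite strand at bases 23 to 28 of the window. A match is a description of the letters and not a site shown to be bound, and the lack of a match concerns these windows only.

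Scaling bears on all the diet values. Transcripts of the mitochondrial genome took 20.4% to 25.3% of the counts in HFD libraries and 24.6% to 31.3% in chow libraries. With library totals in place of TMM factors, the median log2 fold change of all genes shifted by 0.265 for diet in the knockout and 0.476 for diet in wild-type. The 9 genes moved with that shift, and the rises stayed called. Cd36 was at 0.67 in the knockout and 0.93 in wild-type with library totals, Gpihbp1 at 0.68 and 0.95, and Lrp1 at 0.62 and 1.21. Lpl in the knockout was at -0.44 and remained called (adjusted p = 0.0421).

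**Figure D5:**
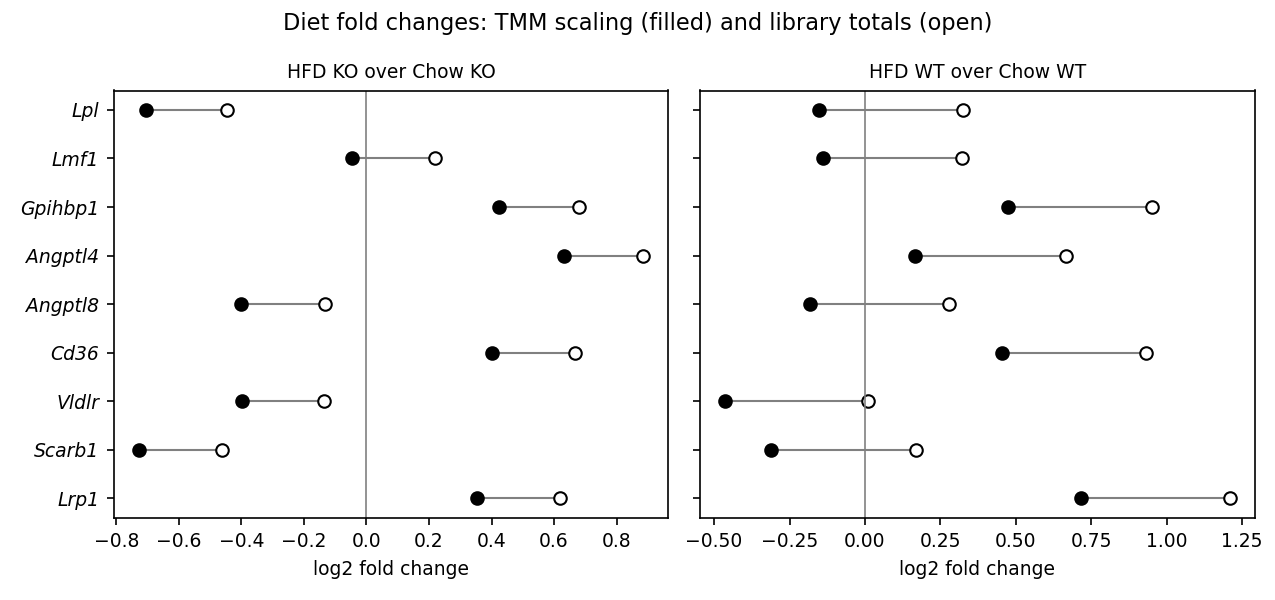
Log2 fold change by diet for the 9 genes with TMM scaling (filled) and with library totals (open), HFD KO over Chow KO and HFD WT over Chow WT. Every gene shifts to the right with library totals, and in wild-type the values of Lpl, Lmf1, Angptl8, Vldlr (-0.46 and 0.0085) and Scarb1 (-0.31 and 0.17) cross 0, as Lmf1 does in the knockout.

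Ratios between the genes do not depend on scaling within a library. The ratio of Lpl to Angptl4 counts was 10.3 ± 2.00 in HFD KO, 11.5 ± 2.69 in HFD WT, 26.4 ± 3.53 in Chow KO and 15.0 ± 5.53 in Chow WT. Chow KO values of 22.9 to 29.9 lay above all Chow WT values of 8.97 to 20.3 and above both HFD groups. The ratio of Lpl to Cd36 ran from 1.08 to 1.66 in HFD KO, 1.10 to 1.32 in HFD WT, 2.34 to 3.24 in Chow KO and 1.64 to 2.00 in Chow WT. The ratio of Lpl to Gpihbp1 averaged 50.4 ± 15.0 in HFD KO, 52.7 ± 4.99 in HFD WT, 109 ± 19.8 in Chow KO and 81.1 ± 10.6 in Chow WT, and the genotypes overlapped on both diets. These ratios are given as a description, without a test.

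Lipg, which encodes endothelial lipase, a phospholipase of the same family as Lpl, was called in 4 of the comparisons. It averaged 2.60 ± 0.70 CPM in HFD KO, 2.02 ± 0.37 CPM in HFD WT, 10.2 ± 2.28 CPM in Chow KO and 4.91 ± 0.87 CPM in Chow WT. It was higher in the knockout on chow (1.05 ± 0.22, adjusted p = 0.0343) and averaged over diets (0.70 ± 0.14, adjusted p = 0.0185), and it fell on HFD in the knockout (-1.97 ± 0.21, adjusted p = 1.24e-05) and in wild-type (-1.28 ± 0.20, adjusted p = 0.000182). Of the 3 related lipases Lipg, Lipc and Lipa, the other 2 were called in no comparison by edgeR or DESeq2. Chow KO had the highest mean of the 4 groups for Lipg, Pcsk5, Lpl and Scarb1. This was not particular to them, since Angptl8, Furin, Apoe, Sorl1 and Pparg, among others, were also highest in Chow KO. Cd36, Gpihbp1 and Lrp1 were not, and the share over all genes was not counted.

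Among 10 apolipoprotein genes, which encode the surface proteins of lipoproteins and their enzyme cofactors, diet in the knockout gave 0 up and 2 down, diet in wild-type 5 up and 1 down, and genotype 0 calls on either diet by edgeR. At an unadjusted p under 0.05 there were 1 by genotype on HFD and 3 on chow, and DESeq2 called 1 on HFD and 2 on chow. Apoc1 fell in both genotypes on HFD, to 108 ± 37.7 CPM in HFD KO against 228 ± 26.3 CPM in Chow KO (-1.08 ± 0.24, adjusted p = 0.00448) and to 66.7 ± 18.2 CPM in HFD WT against 224 ± 36.5 CPM in Chow WT (-1.74 ± 0.23, adjusted p = 5.08e-05). Apoe, a ligand of LDL receptor family members, fell in the knockout, to 241 ± 64.0 CPM in HFD KO against 445 ± 17.8 CPM in Chow KO (-0.88 ± 0.19, adjusted p = 0.00334). Those that rose in wild-type were genes of liver and gut lipoproteins at low levels, such as Apob, with 0.188 to 41.7 CPM in HFD WT and 0 to 0.192 CPM in Chow WT, and Apoa4, with 0.0268 to 1.78 CPM in HFD WT and 0 to 0.0278 CPM in Chow WT. The hepatocyte marker sums given above were higher in 4 of the 5 HFD WT libraries than in every Chow WT library, with 10 of 12 hepatocyte markers called higher in HFD WT than in Chow WT, and their part was not tested.

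Of 13 other lipoprotein and scavenger receptor genes, 11 were tested, with 0 up and 4 down by diet in the knockout, 1 up and 2 down by diet in wild-type, and 0 called by genotype on either diet by edgeR. Diet called 25.8% of all tested genes in the knockout and 32.1% in wild-type. At an unadjusted p under 0.05 there were 4 by genotype on HFD and 2 on chow, and DESeq2 called 0 on HFD and 1 on chow. Sorl1, a sorting receptor, fell in both genotypes, to 86.2 ± 12.6 CPM in HFD KO against 166 ± 22.4 CPM in Chow KO (-0.95 ± 0.23, adjusted p = 0.00678) and to 66.0 ± 18.8 CPM in HFD WT against 143 ± 41.9 CPM in Chow WT (-1.12 ± 0.21, adjusted p = 0.000989). Lrpap1, the chaperone of LRP1 and VLDLR, fell as well, by -0.46 ± 0.09 in the knockout (adjusted p = 0.00255) and -0.25 ± 0.09 in wild-type (adjusted p = 0.0415). Sort1, the sortilin gene, fell in the knockout (-0.36 ± 0.07, adjusted p = 0.00167). Msr1, a macrophage scavenger receptor, rose in wild-type, to 2.39 ± 1.47 CPM in HFD WT against 1.02 ± 0.16 CPM in Chow WT (1.23 ± 0.34, adjusted p = 0.0107), beside the macrophage markers that rose there.

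Of 14 genes for the passage of fatty acids across endothelium and membrane, 2 rose and 4 fell on HFD in the knockout, 4 rose and 3 fell in wild-type, 1 was higher by genotype on HFD and 0 were called by genotype on chow (4 at an unadjusted p under 0.05 in edgeR, 0 by DESeq2). Fabp5, a fatty acid binding protein of adipocytes, endothelial cells and macrophages, was higher in HFD KO, at 94.4 ± 13.8 CPM, than in HFD WT, at 59.2 ± 7.11 CPM (0.67 ± 0.13, adjusted p = 0.0272), and averaged over diets (0.46 ± 0.10, adjusted p = 0.0221). Cav1, the caveolin gene, rose on HFD by 0.41 ± 0.10 in the knockout (adjusted p = 0.00559) and 0.47 ± 0.09 in wild-type (adjusted p = 0.000941). Slc27a1, which encodes the fatty acid transport protein FATP1, fell by -0.44 ± 0.10 in the knockout (adjusted p = 0.00418) and -0.52 ± 0.09 in wild-type (adjusted p = 0.000435). Meox2, a partner of Tcf15 in control of endothelial Cd36 and Lpl in the heart of mice, rose in wild-type (0.75 ± 0.14, adjusted p = 0.00101), and Nrp1, a receptor for VEGFB, fell in the knockout (-0.28 ± 0.07, adjusted p = 0.012).

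Of 8 transcription factor genes known to act on these targets, Nr1h2, which encodes the oxysterol receptor LXRβ, fell on HFD by -0.42 ± 0.07 in the knockout (adjusted p = 0.000648) and -0.36 ± 0.07 in wild-type (adjusted p = 0.000811). Nr1h3, the LXRα gene, fell in the knockout (-0.22 ± 0.07, adjusted p = 0.0241). None of the 8 rose by diet, and genotype called 0 on either diet by edgeR. At an unadjusted p under 0.05 there were 1 on HFD and 2 on chow, and DESeq2 called 0 on HFD and 1 on chow. Pparg, the adipocyte receptor that induces Lpl and Cd36, averaged 193 ± 9.98 CPM in HFD KO, 171 ± 21.7 CPM in HFD WT, 206 ± 14.4 CPM in Chow KO and 175 ± 5.31 CPM in Chow WT. It was called in no comparison by edgeR (averaged over diets, adjusted p = 0.0765), and DESeq2 called the averaged genotype difference (adjusted p = 0.0207).

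The genes whose levels followed Lpl most closely across the 17 libraries were Tug1, Rcl1, Lamp2, N4bp2 and Cmtm6. Likeness was measured as the root mean square difference in log2 CPM after centring each gene, which was 0.132 for Tug1 and 0.138 for Cmtm6, beside a median of 0.362 over all tested genes. Lamp2 averaged 93.9 ± 8.17 CPM in HFD KO, 97.1 ± 2.67 CPM in HFD WT, 140 ± 2.07 CPM in Chow KO and 116 ± 8.30 CPM in Chow WT, the same order of groups as Lpl. Cmtm6 averaged 28.8 ± 2.37 CPM in HFD KO, 31.0 ± 1.39 CPM in HFD WT, 49.8 ± 1.49 CPM in Chow KO and 34.6 ± 1.86 CPM in Chow WT. The 17 libraries share their groups and runs, so the measure gives likeness over 4 groups more than over 17 independent samples.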

How the data were processed

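Libraries of total RNA from brown adipose tissue were made with a TruSeq kit, per the labels' protocols. The authors deposited unscaled whole-number counts per gene for 17 libraries. Per the submitters' processing notes, STAR 2.7.8a, RSEM 1.3.0, FastQC, DESeq and GRCm39 were used, with no role given, so the counts may be rounded RSEM estimates. The strand setting is not given in the sources used here.

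Groups were taken from the labels. Of 55414 genes, 25996 had 0 counts in every library. filterByExpr left 17717, and counts were fitted in R 4.3.3 with edgeR 4.0.16 (TMM factors, quasi-likelihood F test, two-sided, all 17 libraries, 1 coefficient per group). Adjusted p-values are Benjamini-Hochberg values over the 17717 genes. SE was derived from the fold change and its F statistic. CPM values are mean ± SD over libraries. In the text, fold changes of the 9 genes are given where the unadjusted p was 0.05 or less (23 of 54 values), and otherwise levels. Exon lengths are the union of exons in GENCODE M21, matched by gene identifier. Gpihbp1 was set against endothelial markers on log2(CPM + 0.5) with exact permutation tests. The edgeR fit was tested on simulated counts. Its pass rule for recovery covered only the largest simulated fold change, which was larger than any of the 9 genes showed. The exact permutation test was not part of this.

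Further genes were named as up to 3 called members of each list per comparison with the smallest adjusted p, together with Dbi, defining markers, and the 5 genes most like Lpl. Pparg was added after its values were seen. A further gene of these lists is not reported here. The 9 genes, the lists (58 further genes) and the alternatives were chosen with earlier results of these data known. Alternatives were DESeq2 1.42.0, limma-voom (limma 3.58.1), other scalings and filters, left-out libraries, and terms for replicate number, run and muscle markers.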

Additional observations from a re-analysis of the deposited data

Results flagged for a closer look

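In 3 of 30 sets of values tested (each the values of 1 gene or measure within 1 group), 1 library lay far from the other 4 of its group, beyond the 95% critical value of Dixon's test. Chance alone gives about 1 in 20 such sets. Cd36 was at 1499 CPM in HFD KO 1, where the other HFD KO libraries had 1322 to 1344 CPM. Angptl4 was at 187 CPM in HFD KO 1, where the others had 161 to 167 CPM. HFD KO 1 is the knockout library whose number lies in the run of the HFD WT libraries, and it has 3.29 CPM of skeletal muscle markers. Lrp1 was at 655 CPM in HFD WT 3, where the other HFD WT libraries had 433 to 482 CPM.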

How the results depend on the processing

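For the 23 fold changes of the 9 genes that are given, 511 values were recomputed under alternatives, of which 450 kept their direction and side of the threshold, 55 lost a call, 4 gained a call and 2 turned direction. The 2 turned with library totals, to 0.0085 for Vldlr and 0.17 for Scarb1 by diet in wild-type. Of the 31 fold changes not given, 21 changed sign somewhere and 2 were called somewhere, Angptl4 and Lmf1 by diet in wild-type, both with library totals. By genotype on HFD, the 0 members called became 2 with DESeq2 and 1 with library totals, and 0 to 1 when 1 library was left out (1 without HFD WT 5, Cd36). Averaged over diets, the 1 call, Cd36, became 0 with library totals, without a filter on low counts, with the replicate block (adjusted p = 0.0614), without the 4 muscle-rich HFD libraries, without Chow WT 1 and 2, and with the run as a term, which leaves HFD KO 1 as the only HFD knockout library. It ranged from 0 to 1 with 1 library left out, and was lost without Chow WT 2, Chow KO 2, 3 or 4, HFD WT 1 or 2, or HFD KO 2, 3 or 4. By diet in the knockout, 7 members became 2 with the run as a term, Cd36 and Scarb1, a fit that sets HFD KO 1 alone against Chow KO and does not separate diet from run. They became 5 to 6 with 1 library left out. By diet in wild-type, 4 to 5 were called with 1 library left out. The cause was not tested.

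For Gpihbp1 relative to endothelial markers, the odd places of the list gave 0.016 by genotype on chow, 0.15 by genotype on HFD and -0.0208 by diet in wild-type. Leaving out 1 library gave -0.0962 to 0.0935 by genotype on chow, 0.15 to 0.23 by genotype on HFD, -0.0573 to 0.0325 by diet in wild-type and 0.10 to 0.29 by diet in the knockout. The call by genotype on HFD was lost without any HFD WT library (adjusted p = 0.159 to 0.190) and kept without any HFD KO library. Without any HFD WT library the difference itself stayed at 0.18 to 0.20, and the groups still did not overlap.

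Correlations of deviations between same-numbered libraries ran from -0.74 to 0.36. Other differences between libraries, such as muscle markers, enter these values, so they do not settle whether replicate numbers pair the samples. The main fit treated the samples as unpaired. The replicate block also ended the calls of Scarb1 by diet in wild-type (adjusted p = 0.0535) and of Lrp1 by diet in the knockout (adjusted p = 0.0621). Group means of the 9 genes moved by more than 1 SD in 20 of 36 cases with library totals and in 0 of 36 with RLE factors. Depth was 39.6 to 49.7 megacounts in chow libraries and 60.0 to 104.9 in HFD libraries. Depth and diet thus cannot be told apart, and the effect of depth was not tested.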
